A study of Mus musculus with 24 samples.

Results

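The genes described here are the cytochrome P450 genes outside family 1. They were taken by symbol: every name that begins with Cyp and a digit, without Cyp1a1, Cyp1a2 and Cyp1b1, and without names that end in the pseudogene mark -ps. The rule found 98 genes, of 37818 symbols listed in at least 1 of 3 expression tables. The table of Pri-Hep and Hep-Orgs listed 98 of them, the table of Cho-Orgs 91 and the table of picked organoids 79, and 78 were in all 3. One of the 98, Cyp4x1os, is a noncoding RNA on the strand opposite Cyp4x1 and not an enzyme gene.

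The study grew organoids from livers of male BALB/c mice aged 6 to 8 weeks and sequenced their polyadenylated RNA. Pri-Hep were primary hepatocytes of the EpCAM-negative fraction, and Hep-Orgs were organoids grown from such cells in a hepatocyte medium with the Notch inhibitor DAPT and dexamethasone, taken at passages P1, P5 and P10. Cho-Orgs were organoids grown from EpCAM-positive cells in a cholangiocyte medium without DAPT and dexamethasone, taken at P0, P5 and P10. Each of these 7 groups had 3 libraries. Hep-Orgs of 3 shapes, named grape-like, intermediate and round-like, were picked at P0 and amplified by the full-length Smart-Seq method, with 1 library for each shape. By the study's account these shapes arose in the hepatocyte medium before DAPT and dexamethasone were brought in, so the picked organoids differ in treatment from the Hep-Orgs of P1 to P10. Values of the picked organoids run below from grape-like through intermediate to round-like. All mice were wild-type, and the organoids were cultures grown from sorted cells, not clones with a known cell of origin. The study describes the 3 libraries of a group in one place as from 3 mice and in another as from independent cultures, and the labels only number them, with an M before the number in Cho-Orgs. The p-values measure the spread between these libraries, which may in part be technical.

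Cytochrome P450 enzymes are heme proteins of the endoplasmic reticulum and of mitochondria that insert an oxygen atom into their substrates with electrons from a partner enzyme. In the liver, families 2 and 3 oxidize drugs, steroids and fatty acids, family 4 hydroxylates fatty acids, and families 7, 8, 27 and 39 turn cholesterol into bile acids. Many members of families 2 and 3 are abundant in mature hepatocytes and scarce in bile duct cells, and several are known targets of the nuclear receptors CAR, PXR and HNF4A.

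Before the members, the libraries were checked against their labels with 10 hepatocyte markers and 10 cholangiocyte markers. The libraries labelled Pri-Hep did not carry a hepatocyte pattern: Alb, the gene for serum albumin, was at 106 to 121 FPKM, below the bile duct keratin Krt19 at 229 to 241 FPKM. FPKM is the number of fragments scaled by gene length and library size. The hepatocyte list summed to 563 to 599 FPKM in these libraries and to 577 to 626 FPKM in Hep-Orgs, the cholangiocyte list to 3903 to 3996 and 3850 to 4068 FPKM. In these 12 libraries, 7 of 8 Kupffer cell markers, Clec4f among them, were at 0 in each group. Cho-Orgs at P0 held both patterns, with Alb at 4526 to 5254 FPKM and Krt19 at 996 to 1141 FPKM. In Cho-Orgs the hepatocyte list summed to 5103 to 6118 FPKM at P0 and to 145 to 175 FPKM at P5, and by P10 to 33 to 35.8 FPKM. All comparisons with Pri-Hep below are comparisons with the libraries so labelled. In bulk RNA, fewer cells of a type and less RNA per cell cannot be told apart. The 3 tables were normalized separately, so every test was made within a table and levels set side by side across tables are a description.

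**Figure D1:**
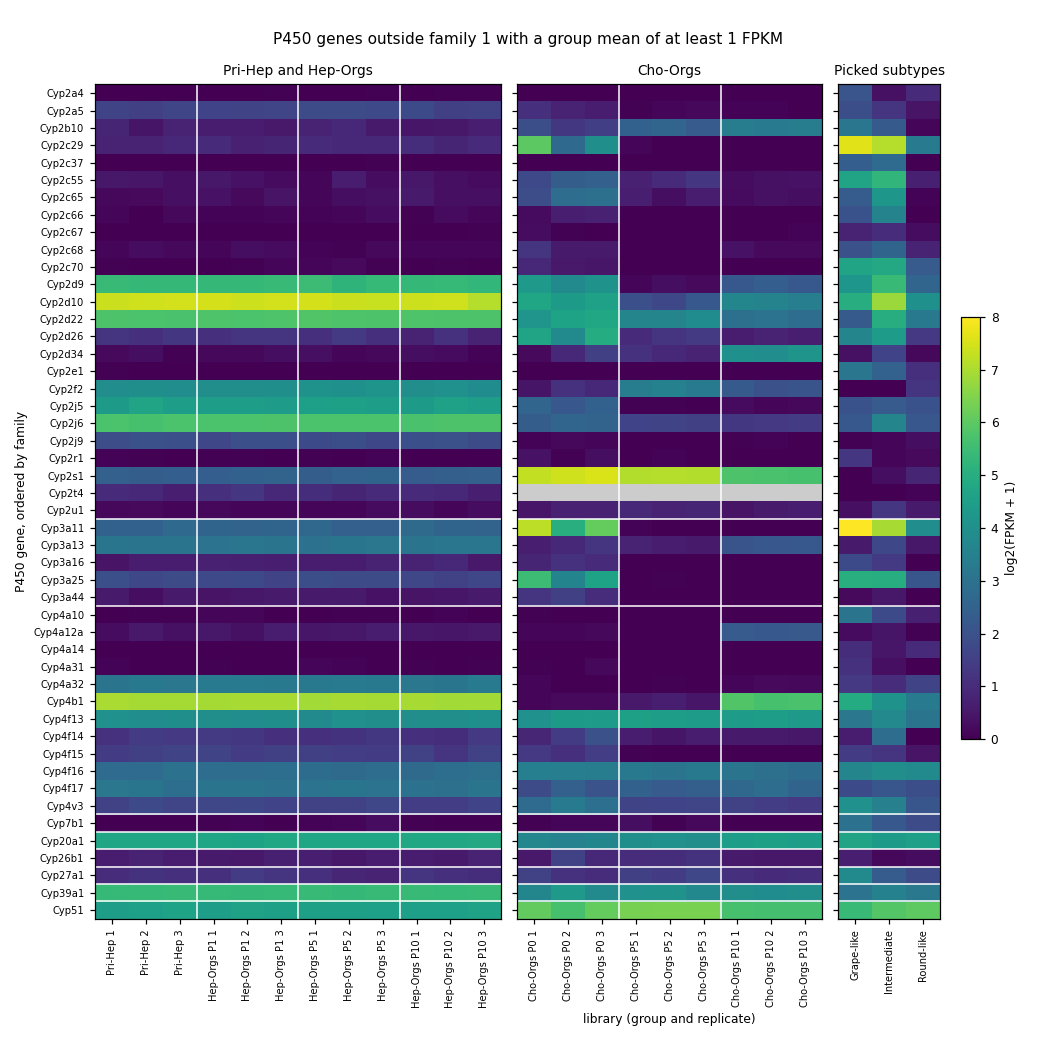
Level of the 48 P450 genes whose mean reached 1 FPKM in any group, as log2(FPKM + 1), in each of the 24 libraries. Rows are genes in order of family with white lines between families, columns are libraries, and grey marks a gene that a table does not list. All 12 columns from Pri-Hep to Hep-Orgs P10 look alike, while rows change between passages of Cho-Orgs and between the 3 picked subtypes.

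Summed over all members, P450 RNA stood at 634 ± 5.16 FPKM in Pri-Hep (SD, n = 3 here and below) and at 642 ± 6.01, 638 ± 10.6 and 624 ± 17.2 FPKM in Hep-Orgs at P1, P5 and P10. Family 2 made up 57.3% of the sum in Pri-Hep, family 4 made up 25.8% and family 3 made up 2.51%. In Cho-Orgs at P0, P5 and P10 the sum was 553 ± 99.9, 324 ± 3.44 and 287 ± 7.30 FPKM. Family 3 took 20.2% of the sum at P0, 0.194% at P5 and 1.20% at P10, while family 4 took 7.77%, 11.5% and 32.0%. The picked organoids had sums of 822, 799 and 215 FPKM. Family 3 made up 34.8%, 19.9% and 8.36% of those sums.

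**Figure D2:**
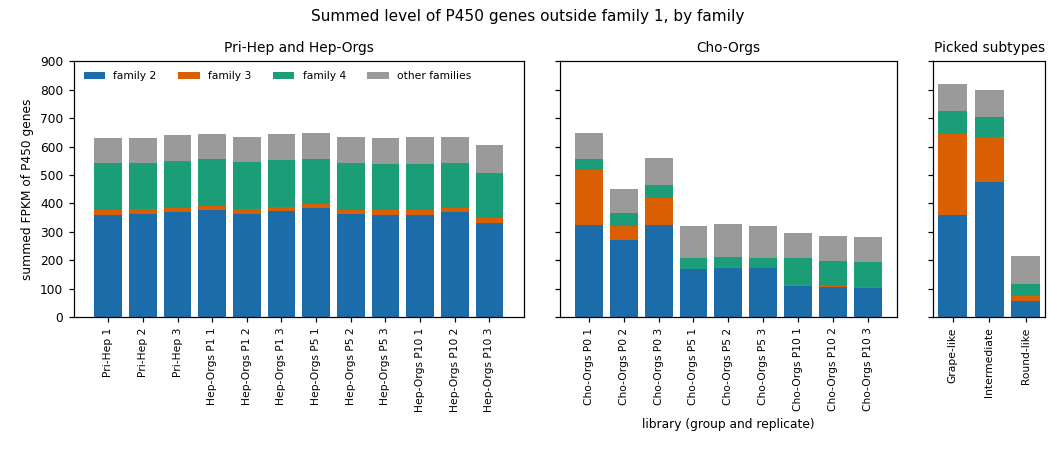
Summed FPKM of the members in each of the 24 libraries, stacked by family 2, family 3, family 4 and all other families. The 9 Hep-Orgs libraries and the 3 Pri-Hep libraries reach 604 to 650 FPKM, the Cho-Orgs libraries go from 449 to 649 FPKM at P0 to 281 to 295 FPKM at P10, and the round-like library is the lowest of all at 215 FPKM.

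In the table of Pri-Hep and Hep-Orgs, 26 of the 98 members reached 1 FPKM in at least 3 libraries and were tested, 20 were at 0 in every library and 52 lay between. No member passed the test in any of the 7 comparisons, by limma on log2(FPKM + 1) with Benjamini-Hochberg adjustment over all 10986 genes tested at a threshold of 0.05. The share of all genes called was 0% for all Hep-Orgs against Pri-Hep, 0.00910% for P1, 0.00910% for P5 and 0% for P10 against Pri-Hep. It was 0% for P5 against P1, 0% for P10 against P1 and 0.0273% for P10 against P5. At an unadjusted p under 0.05, the members counted 1, 1, 3, 4, 3, 2 and 4 of 26 in the same order. Of all 10986 genes tested, 966, 911, 1184, 730, 436, 986 and 1266 lay under that unadjusted p. By limma-voom on the fragments recovered from the table, 0 members were called in each comparison as well. With all Hep-Orgs set against Pri-Hep, the fitted differences ran from -0.10 for Cyp4f14 to 0.10 for Cyp2t4 on the log2 scale, and the 95% intervals of all 26 lay between -0.29 and 0.30. A 2-fold difference of any tested member between all Hep-Orgs and the libraries labelled Pri-Hep thus lay outside its interval.

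In the table of Cho-Orgs, 29 of the 91 members listed were tested, 11 were at 0 in every library and 51 lay between. By the same test over 11593 genes, 21 of the 29 passed from P0 to P5, 5 higher and 16 lower. That is 72.4% of the members tested beside 56.6% of all genes tested, 17.2% beside 34.0% higher and 55.2% beside 22.6% lower. From P0 to P10, 25 passed, 8 higher and 17 lower, which is 86.2% beside 72.3%, 27.6% beside 41.0% higher and 58.6% beside 31.3% lower. From P5 to P10, 17 passed, 8 higher and 9 lower, which is 58.6% beside 61.5%, 27.6% beside 31.0% higher and 31.0% beside 30.5% lower, near the background. Without replicate 3, 8 members were higher and 4 lower from P5 to P10, and of all genes 2571 were higher and 2656 lower. The median difference of the members tested was -0.32, -0.98 and -0.02 on the log2 scale for these 3 comparisons, and that of all genes tested was 0.06, 0.07 and 0.01. These counts are not support for a shared direction, because 9 of the 29 reached 1 FPKM in a single group and had to differ to be tested. They were Cyp2c29, Cyp2c65, Cyp2j5, Cyp3a11, Cyp3a25, Cyp3a44 and Cyp4f15 through P0, and Cyp4a12a and Cyp4b1 through P10. For these 9 the adjusted p alone is no support, and the fit with no filter on low values, over 22670 genes, is also given below for each of them. Among all genes from P0 to P5, 3938 calls were higher and 2621 lower, and with median-ratio size factors 3087 were higher and 3449 lower, while the members stayed at 5 higher and 16 lower. The 3 comparisons share libraries, so they are not independent of each other.

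**Figure D3:**
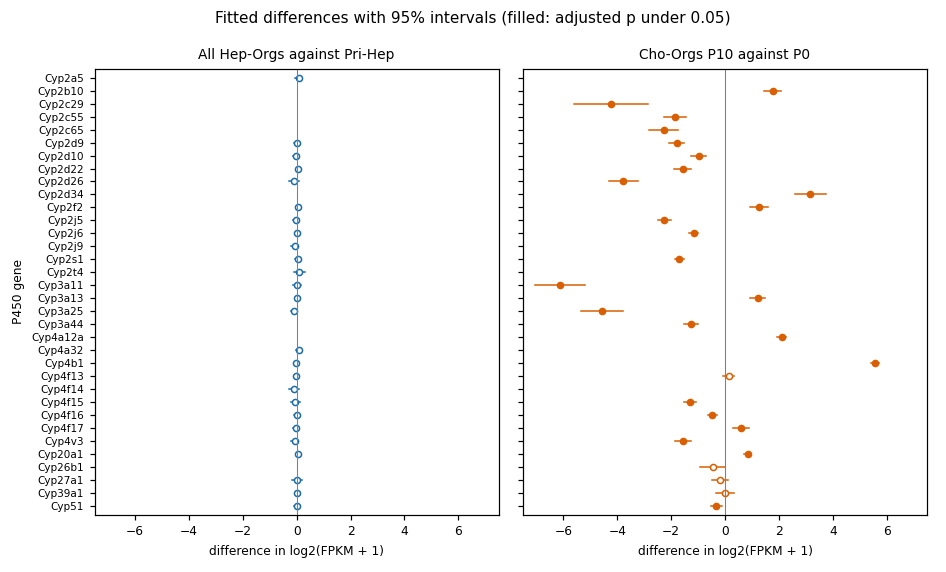
Fitted difference in log2(FPKM + 1) with its 95% interval for each tested P450 gene, for all Hep-Orgs against Pri-Hep and for Cho-Orgs P10 against P0, on the same scale. Filled points have an adjusted p under 0.05. All 26 points for Hep-Orgs lie within 0.11 of 0, and the 29 points for Cho-Orgs run from -6.11 for Cyp3a11 to 5.57 for Cyp4b1.

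Family 3 had 9 members, all of subfamily 3a, whose enzymes oxidize bulky drugs and steroids. Cyp3a11, the main 3a enzyme of mouse liver (ENSMUSG00000056035, chromosome 5, 145854426 to 145879964 in GRCm38), was at 148, 31.3 and 68.1 FPKM in the 3 Cho-Orgs libraries at P0. It was at 0.0516, 0 and 0 FPKM at P5 and was listed at 0 in all 3 libraries at P10. The P0 libraries lay far above the later ones, with a spread of nearly 5-fold among themselves, and the groups did not overlap. The fall from P0 to P5 was -6.09 ± 0.41 on the log2 scale (SE, adjusted p = 2.19e-06, and 6.27e-05 with no filter). Without replicate 1, the highest at P0, the difference from P0 to P10 was -5.56 (adjusted p = 1.03e-05). That fit kept the filter, which Cyp3a11 passed through P0 alone, so its adjusted p alone is no support. With no filter and all replicates, the difference from P0 to P10 was -6.11 (adjusted p = 2.34e-05). Cyp3a25 went the same way, from 43.3, 11.1 and 23.7 FPKM at P0 to 0.0132, 0.0262 and 0.0130 FPKM at P5 and 0 at P10. Its fall by P5 was -4.54 ± 0.35 (adjusted p = 5.19e-06, and 0.000119 with no filter). Cyp3a44 fell by 1.24 ± 0.12 on the log2 scale (adjusted p = 1.86e-05, and 0.000117 with no filter), from 1.40 ± 0.431 FPKM at P0. Cyp3a13, a 3a gene also active in the gut, took another course: it was at 0.604, 0.890 and 1.31 FPKM at P0, at 0.712, 0.540 and 0.505 FPKM at P5 and at 3.20, 3.53 and 3.59 FPKM at P10. Its rise from P5 to P10 was 1.49 ± 0.12 (adjusted p = 6.73e-06), and its values at P0 and P5 overlapped.

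In Pri-Hep, Cyp3a11 was at 4.63, 4.54 and 5.63 FPKM, and in the 9 Hep-Orgs libraries it ran from 4.44 through a median of 5.02 to 5.84 FPKM. Cyp3a13 was the highest member of the family there, at 7.36 to 7.57 FPKM in Pri-Hep and 7.11 to 7.96 FPKM in Hep-Orgs. Neither differed between the groups by more than the spread of the libraries. Among the picked organoids, Cyp3a11 was at 251, 123 and 14.1 FPKM and Cyp3a25 at 31.4, 30.7 and 3.42 FPKM. Cyp3a13 had its highest value in the intermediate library, 2.30 FPKM beside 0.479 and 0.419 FPKM. The family held 4 genes of at least 1 FPKM there, and 3 of them, Cyp3a11, Cyp3a16 and Cyp3a25, were lowest in the round-like library, by a log2 difference over 1. Of these, Cyp3a16 was at 0 FPKM in the round-like library and was counted through the other libraries. The pair Cyp3a41a and Cyp3a41b, whose transcripts share 88.2% to 90.8% of their 100-base windows with related genes, stayed under 0.2 FPKM in every library, and reads of one could have been counted for the other.

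Subfamily 2c, with 15 genes, holds the enzymes that turn arachidonic acid into epoxides and oxidize many drugs. Cyp2c29 (ENSMUSG00000003053, chromosome 19, 39269405 to 39330713), a 2c gene abundant in mouse liver, was at 62.9, 5.69 and 15 FPKM in Cho-Orgs at P0, at 0.0895, 0 and 0 FPKM at P5 and, by P10, at 0, 0 and 0.015 FPKM. Replicate 1 stood above the other P0 libraries, as it did for Cyp3a11. The fall of Cyp2c29 to P5 was -4.21 ± 0.62 (adjusted p = 0.000311, and 0.00255 with no filter). From P0 to P10 without replicate 1 it was -3.36 (adjusted p = 0.000178), again among filtered genes, so that adjusted p alone is no support. With no filter and all replicates, the difference from P0 to P10 was -4.24 (adjusted p = 0.00146). Cyp2c55 and Cyp2c65, which are known from the gut as well as the liver, had another order at P0, with replicate 1 the lowest: 2.40, 4.18 and 4.49 FPKM for Cyp2c55 and 2.71, 6.27 and 6.70 FPKM for Cyp2c65. Both fell by P5, by 1.21 ± 0.18 (adjusted p = 0.000396) and by 2.04 ± 0.24 (adjusted p = 7.73e-05, and 0.000805 with no filter) on the log2 scale. Subfamily 2c summed to 38.8 ± 28.1, 1.58 ± 0.405 and 0.797 ± 0.0371 FPKM over the 3 passages. In Pri-Hep it summed to 1.56 ± 0.0678 FPKM over 15 genes, and no 2c gene reached the filter in that table.

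The grape-like and intermediate libraries carried the highest 2c levels of the series. Cyp2c29 was at 200, 136 and 8.97 FPKM. Cyp2c55 was at 24.5, 37.1 and 0.635 FPKM, and Cyp2c70, which hydroxylates bile acids to muricholic acids in mice, at 24.7, 27.7 and 3.89 FPKM. Cyp2c65 and Cyp2c66 had their highest values in the intermediate library, at 17.9 and 11 FPKM, with 4.04 and 3.02 FPKM for the grape-like shape and 0.0639 and 0 FPKM for the round-like shape. The transcripts of Cyp2c65 and Cyp2c66 share 7.82% to 8.55% of their 100-base windows, so a part of their counts is uncertain. Subfamily 2c as a whole summed to 264, 243 and 14.5 FPKM.

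Upstream stretches of 2c and 3a genes, and of Cyp8b1, a bile acid gene, are printed here because 6 tested genes of these subfamilies were lower at P5 than at P0 in Cho-Orgs: Cyp2c29, Cyp2c55, Cyp2c65, Cyp3a11, Cyp3a25 and Cyp3a44. All of these but Cyp2c55 were tested through P0 alone, so the number that fell is no evidence of a shared course. The search covered the 250 bases upstream of each RefSeq start (GRCm38.p6) on both strands, and 75 of the 98 members had an entry. CAAAGTCCA, the core of the site that HNF4A binds, was chosen after the promoter of Cyp3a11 had been read, so its share is a description. It stood in 11 of 85 member promoters (12.9%) and in 0.387% of all 32536 promoters of that length. The 11 genes were Cyp2c40, Cyp2c65, Cyp2c67, Cyp2c68, Cyp2c69, Cyp2c70, Cyp3a11, Cyp3a16, Cyp3a41a, Cyp3a41b and Cyp8b1. Most of them are paralogs in 2 clusters, on chromosomes 19 and 5, and share ancestry. AGGTCA, the element that many other nuclear receptors bind, stood in 22.4% of member promoters and in 14% of all, and its last letters can be the first letters of the other motif. Of the 6 genes that fell, Cyp3a11 and Cyp2c65 hold the first motif, Cyp2c29, Cyp3a11, Cyp3a25 and Cyp3a44 hold the second, and Cyp2c55 holds neither. Stretches of 60 bases follow on the gene's own strand, with the motifs in capitals.
Cyp3a11 (chr5:145879930-145879989, minus strand): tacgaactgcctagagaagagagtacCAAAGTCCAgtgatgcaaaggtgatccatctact
Cyp2c65 (chr19:39060864-39060923, plus strand): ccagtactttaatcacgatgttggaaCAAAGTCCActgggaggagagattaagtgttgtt
Cyp2c70 (chr19:40187317-40187376, minus strand): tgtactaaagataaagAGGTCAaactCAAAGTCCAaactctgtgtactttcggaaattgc
Cyp8b1 (chr9:121916339-121916398, minus strand): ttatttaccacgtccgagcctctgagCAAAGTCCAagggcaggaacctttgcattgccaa
The motif stands 109 bases before the RefSeq start of Cyp3a11, 116 before that of Cyp2c65, 64 before that of Cyp2c70 and 67 before that of Cyp8b1. For Cyp3a11 the RefSeq start lies inside the gene span printed above, which is that of GENCODE, and the motif lies just inside that span. Cyp8b1 was listed at 0 in each library of both tables that list it. Hnf4a itself was at 64.3, 60.9 and 56.4 FPKM (means of 3) in Cho-Orgs at P0, P5 and P10, and its difference from P0 to P10 was -0.18 ± 0.10 (adjusted p = 0.128). A match says nothing about binding, and its part in the levels was not tested.

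Subfamily 2d, 8 genes on chromosome 15 that oxidize amine drugs and steroids, gave the highest P450 level of Pri-Hep and Hep-Orgs. Cyp2d10 (ENSMUSG00000094806, 82402846 to 82407195) was at 164, 169 and 176 FPKM in Pri-Hep, and from 137 through a median of 168 to 180 FPKM in the 9 Hep-Orgs libraries. Cyp2d22 followed at 51.5 to 54.0 FPKM in Pri-Hep, and Cyp2d9 (ENSMUSG00000068086, 82433437 to 82456845) at 38.8 to 40.7 FPKM. Together the 8 genes made up 41.5% of all member FPKM in Pri-Hep.

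In Cho-Orgs, Cyp2d9 and Cyp2d10 were the only 2 of the 29 tested members that fell from P0 to P5 and rose again from P5 to P10. Cyp2d10 was at 24.8, 19.5 and 22.7 FPKM at P0, at 2.88, 2.31 and 3.60 FPKM at P5 and, by P10, at 11.7, 10.9 and 9.77 FPKM. Cyp2d9 was at 18.8, 13.2 and 15.8 FPKM at P0, at 0.0802, 0.222 and 0.142 FPKM at P5 and at 3.56, 4.28 and 3.64 FPKM at P10. The 3 passages did not overlap for either gene. On the log2 scale Cyp2d10 fell by 2.58 ± 0.13 (adjusted p = 2.21e-07) and rose by 1.60 ± 0.13 (adjusted p = 5.03e-06), and Cyp2d9 fell by 3.87 ± 0.12 (adjusted p = 1.13e-08) and rose by 2.07 ± 0.12 (adjusted p = 6.11e-07). Their transcripts share some 100-base windows with any other member, 14.8% for Cyp2d10 and 8.62% for Cyp2d9, so that reads can be split between such genes. Cyp2d10 shares most with Cyp2d11, 10.7% of its windows, and Cyp2d9 shares 4.03% with Cyp2d10. The 250 bases upstream of both are printed because the genes moved together, and Cyp4b1, the gene with the largest rise, is given beside them. They precede the RefSeq starts, and for Cyp2d9 the whole stretch lies inside the gene span printed above, which is that of GENCODE.
Cyp2d9 (chr15:82452127-82452376, plus strand): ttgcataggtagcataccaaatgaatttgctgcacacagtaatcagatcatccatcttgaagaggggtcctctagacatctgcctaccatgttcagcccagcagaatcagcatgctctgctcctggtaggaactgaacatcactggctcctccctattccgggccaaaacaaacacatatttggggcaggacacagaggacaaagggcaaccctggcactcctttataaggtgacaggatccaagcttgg
Cyp2d10 (chr15:82407195-82407444, minus strand): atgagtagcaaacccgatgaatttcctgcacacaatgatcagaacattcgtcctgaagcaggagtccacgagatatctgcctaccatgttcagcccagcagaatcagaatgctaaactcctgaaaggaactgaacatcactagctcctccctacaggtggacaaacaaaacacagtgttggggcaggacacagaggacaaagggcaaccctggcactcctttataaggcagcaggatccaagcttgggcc
Cyp4b1 (chr4:115647722-115647971, minus strand): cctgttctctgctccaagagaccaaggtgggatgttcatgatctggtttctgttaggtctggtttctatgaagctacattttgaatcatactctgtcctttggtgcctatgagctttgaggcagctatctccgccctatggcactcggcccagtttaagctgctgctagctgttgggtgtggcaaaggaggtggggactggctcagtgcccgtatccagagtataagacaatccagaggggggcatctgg
Aligned with a shift of 3 bases, the stretches of Cyp2d9 and Cyp2d10 are identical at 180 of 247 bases (72.9%). Cyp2d9 and Cyp4b1 are identical at 29.3% of 246 bases at their best shift. Cyp2d9 and Cyp2d10 are of the same subfamily, and no 2d gene of another course, such as Cyp2d26, was aligned with them. None of the 3 holds CAAAGTCCA or AGGTCA, which says only that these letters are not in these windows. The part of these stretches in the levels was not tested.

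Other 2d genes went their own ways in Cho-Orgs. Cyp2d26 fell from 24.4, 13.2 and 29.7 FPKM at P0 to 0.954, 1.36 and 1.55 FPKM at P5, by 3.29 ± 0.24 on the log2 scale (adjusted p = 3.01e-06). Cyp2d22 fell at both steps, from 17.0, 24.1 and 26.2 FPKM to 11.4, 11.5 and 13.9 FPKM and then to 6.81, 7.34 and 6.18 FPKM (adjusted p = 0.000979 and 0.00109). Cyp2d34 (ENSMUSG00000094559, chromosome 15, 82615965 to 82620946) was at 0.157, 0.837 and 1.85 FPKM at P0 and at 1.20, 0.904 and 0.750 FPKM at P5, where the groups overlapped. At P10 it was at 15, 14.3 and 16.6 FPKM, a rise of 3.06 ± 0.26 (adjusted p = 7.73e-06). In the picked organoids the leading 2d genes were highest in the intermediate library. Cyp2d10 was at 30.4, 111 and 15.3 FPKM, Cyp2d9 at 17.4, 40.9 and 5.11 FPKM, and Cyp2d22 at 3.76, 30.5 and 8.38 FPKM. The subfamily summed to 63.4, 205 and 30.4 FPKM.

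**Figure D4:**
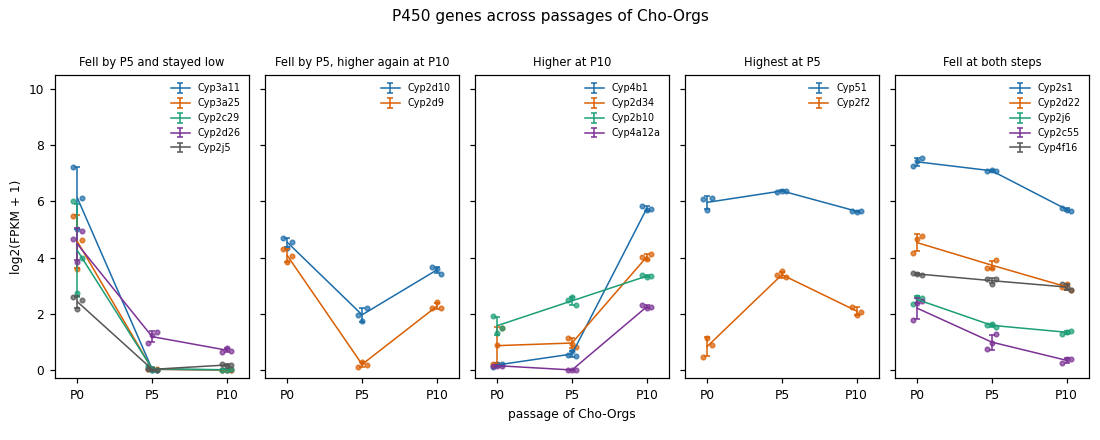
Level of 18 P450 genes as log2(FPKM + 1) in Cho-Orgs at P0, P5 and P10, in 5 panels by course. Points are the 3 libraries of a passage, lines join the means and bars are the SD. Cyp2d9 and Cyp2d10 dip at P5, Cyp4b1 and Cyp2d34 are high at P10, and the P0 libraries of Cyp3a11, Cyp3a25 and Cyp2c29 spread widely.

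Among the other genes of family 2, Cyp2s1 (ENSMUSG00000040703, chromosome 7, 25802475 to 25816913), a P450 of epithelia outside the liver, was the most abundant member in Cho-Orgs at P0 and P5. It was at 152, 171 and 185 FPKM at P0, at 133, 138 and 133 FPKM at P5 and at 53.4, 50.9 and 49.9 FPKM at P10. It fell from P5 to P10 by 1.37 ± 0.07 on the log2 scale (adjusted p = 3.1e-07). The smaller fall from P0 to P5, -0.32 ± 0.07 (adjusted p = 0.00296), did not pass without replicate 3 (-0.25, adjusted p = 0.0523). In Pri-Hep Cyp2s1 was at 4.10 to 4.48 FPKM and in Hep-Orgs at 4.05 to 4.92 FPKM, and in the 3 picked libraries it was below 1 FPKM. Cyp2f2, which oxidizes naphthalene in airway and liver, rose from 0.372, 1.22 and 0.858 FPKM at P0 to 9.28, 10.4 and 8.83 FPKM at P5. It then fell to 3.76, 2.92 and 3.20 FPKM at P10 (adjusted p = 1.02e-06 and 7.5e-05). Its level in Pri-Hep was 14.2 to 14.9 FPKM. It was listed at 0 in the grape-like and intermediate libraries and was at 1.35 FPKM in the round-like library, where on log2(FPKM + 1) it was the 1 member counted as at least 2-fold lower in the grape-like library. Cyp2d22 lay just inside that limit at -0.98, and with a pseudocount of 0.1 or with TPM 2 members were counted.

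Cyp2b10, the classical target gene of the receptor CAR, rose at both steps in Cho-Orgs, from 2.80, 1.47 and 1.83 FPKM to 4.55, 5.04 and 3.96 FPKM and then to 9.27, 8.85 and 9.25 FPKM (adjusted p = 0.000486 and 0.000426). Nr1i3, the gene for CAR, had means of 0.0956, 0.0265 and 0.150 FPKM there, under the filter. In Pri-Hep Cyp2b10 was below 1 FPKM. In the picked organoids it was at 7.87, 3.82 and 0.0793 FPKM. The epoxygenases Cyp2j5 and Cyp2j6 were at 19.5 to 24.4 FPKM and 50.3 to 52.6 FPKM in Pri-Hep. In Cho-Orgs, Cyp2j5 fell from 5.09, 3.51 and 4.63 FPKM at P0 to 0.0226, 0.0224 and 0 FPKM at P5 (adjusted p = 1.27e-07, and 4.04e-06 with no filter). Cyp2j6 fell from 4.70 ± 0.515 to 2.01 ± 0.110 FPKM (adjusted p = 8.21e-06). Its further fall to 1.53 ± 0.0800 FPKM at P10 (adjusted p = 0.0188) was lost without any 1 replicate (adjusted p = 0.0631, 0.0903 and 0.0661). Cyp2e1, which oxidizes ethanol and is among the most abundant P450s of pericentral hepatocytes, had 1 fragment in 1 Pri-Hep library and was at 0 in the other 11 libraries of that table. A count of 0 allows up to 0.0510 to 0.0990 FPKM there (3 fragments, counting error only). Cyp2e1 in the picked organoids was at 7.78, 4.68 and 1.14 FPKM. Cyp2a4, which hydroxylates testosterone, was at 3.35, 0.289 and 0.984 FPKM.

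Family 4 had 21 names, Cyp4x1os included, and its enzymes hydroxylate fatty acids and eicosanoids at the end of the chain. Cyp4b1 (ENSMUSG00000028713, chromosome 4, 115624725 to 115647723), a P450 of lung, kidney and other epithelia, made the largest rise in Cho-Orgs. It was at 0.0785, 0.157 and 0.160 FPKM at P0, at 0.456, 0.588 and 0.408 FPKM at P5 and at 56.4, 50.0 and 51.5 FPKM at P10. The 3 passages did not overlap, and the rise was 0.39 ± 0.07 from P0 to P5 (adjusted p = 0.00122) and 5.18 ± 0.07 from P5 to P10 (adjusted p = 1.97e-10). Cyp4b1 was tested through P10 alone, and the first step lies between groups that were both below 1 FPKM. With no filter the adjusted p was 0.00441 and 8.55e-08 for these steps. The means at P10 and P5 differed 109-fold. In Pri-Hep Cyp4b1 was already the second most abundant member, at 125, 119 and 121 FPKM, and in Hep-Orgs it ran from 118 to 123 FPKM. Its difference between all Hep-Orgs and Pri-Hep was -0.01, with an interval of -0.05 to 0.03. In the picked organoids it was at 29.5, 15.7 and 9.13 FPKM.

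Cyp4a12a, a fatty acid hydroxylase of mouse kidney and liver, was at 0.103 to 0.116 FPKM in Cho-Orgs at P0, was listed at 0 in the 3 libraries at P5 and was at 3.93, 3.60 and 3.74 FPKM at P10. From P5 to P10 it rose by 2.25 ± 0.07 (adjusted p = 1.97e-08). Cyp4a12a was tested through P10 alone, so this adjusted p alone is no support. With no filter its difference from P0 to P10 was 2.10 (adjusted p = 4.31e-08). The transcript of Cyp4a12a shares 35.8% of its windows with Cyp4a12b, which was at 0.290 to 0.504 FPKM at P10, so the division of reads between both is uncertain. Cyp4a10, a target gene of the fatty acid receptor PPARA, was under 0.1 FPKM in all libraries of the bulk tables, but in the picked organoids it was at 7.39, 2.47 and 0.643 FPKM. Cyp4v3, which hydroxylates long fatty acids, fell in Cho-Orgs from 5.88, 9.14 and 6.56 FPKM at P0 to 2.13, 2.07 and 2.17 FPKM at P5 (adjusted p = 1.83e-05). In the picked organoids it was at 15.7, 10.2 and 3.37 FPKM.

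Subfamily 4f, 9 genes that inactivate leukotrienes and oxidize vitamin E and fatty acids, was the steadiest part of family 4. Its sum in Cho-Orgs was 35.4 ± 3.84, 34.6 ± 1.70 and 33.2 ± 2.28 FPKM at P0, P5 and P10, close to the 31.7 ± 0.548 FPKM of Pri-Hep. Cyp4f13 made up most of it, at 15.6, 19.6 and 20.3 FPKM at P0 and 20.5, 21.3 and 19.0 FPKM at P10, where its difference was 0.13 (interval -0.08 to 0.34, adjusted p = 0.225). Single genes did move. Cyp4f15 fell from 1.49, 1.16 and 1.75 FPKM at P0 to 0.0244, 0 and 0 FPKM at P5 (adjusted p = 3.96e-06, and 1.85e-05 with no filter). Cyp4f16 fell from 9.69 ± 0.363 to 6.75 ± 0.645 FPKM by P10 (adjusted p = 0.000288), and Cyp4f17 rose from 3.40 ± 0.922 to 5.61 ± 0.592 FPKM (adjusted p = 0.00228). Cyp4f14, not tested in Cho-Orgs, was at 6.29 FPKM in the intermediate library beside 0.553 FPKM (grape-like) and 0.0119 FPKM (round-like).

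The genes of bile acid synthesis and cholesterol breakdown are Cyp7a1, Cyp7b1, Cyp8b1, Cyp27a1, Cyp39a1 and Cyp46a1. Cyp7a1, the rate-limiting enzyme of the classical path, was listed at 0 in all 21 libraries of the 2 bulk tables, and Cyp8b1, which makes cholic acid, likewise. In the 12 libraries of the hepatocyte table, a count of 0 allows up to 0.0264 to 0.0512 FPKM for Cyp7a1 and 0.0565 to 0.110 FPKM for Cyp8b1. Cyp39a1, the oxysterol 7-alpha-hydroxylase (ENSMUSG00000023963, chromosome 17, 43667425 to 43751431), was the exception, at 40.3, 39.9 and 40.8 FPKM in Pri-Hep and 38.7 to 41.7 FPKM in Hep-Orgs. In Cho-Orgs it was at 11.7, 18.5 and 13.3 FPKM at P0, 15.4, 16.0 and 12.4 FPKM at P5 and 14.6, 13.8 and 14.6 FPKM at P10. It passed the test in none of the 3 comparisons, and its difference from P0 to P10 was 0.00 with an interval of -0.32 to 0.33. In the picked organoids it was at 7.21, 10.4 and 8.17 FPKM. Cyp27a1, the mitochondrial sterol 27-hydroxylase, fell from 1.84, 1.63 and 2.23 FPKM at P5 to 1.15, 0.990 and 1.07 FPKM at P10 in Cho-Orgs (adjusted p = 0.0114), a call lost without replicate 3 (adjusted p = 0.0763). Cyp27a1 in the picked organoids was at 12.9, 3.99 and 2.61 FPKM, and Cyp7b1, the next hydroxylase of the acidic path, was at 6.99, 3.59 and 2.59 FPKM. Cyp46a1, the cholesterol 24-hydroxylase known from neurons, stayed between 0.147 and 1.16 FPKM in the 24 libraries.

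Cyp51 (ENSMUSG00000001467, chromosome 5, 4081145 to 4104746), the lanosterol demethylase of cholesterol synthesis, was at 66.9, 50.4 and 68.5 FPKM in Cho-Orgs at P0, at 80.4, 82.2 and 82.4 FPKM at P5 and at 49.5, 48.7 and 49.0 FPKM at P10. It rose to P5 (0.41 ± 0.10, adjusted p = 0.00584) and fell to P10 (-0.72 ± 0.10, adjusted p = 0.00016), while the difference between P0 and P10 was lost without replicate 1 or 3 (adjusted p = 0.11 and 0.159). Cyp51 was at 21.4 to 23.7 FPKM in Pri-Hep and at 42.1, 56.9 and 63.6 FPKM in the picked organoids, lowest in the grape-like library. Cyp20a1, a P450 of unknown substrate, rose at both steps in Cho-Orgs, from 12, 10.6 and 11.7 FPKM to 14.7, 15.6 and 14.3 FPKM and to 21.1, 22.3 and 20.9 FPKM (adjusted p = 0.000635 and 6.3e-05). It stood at 25.1 to 25.3 FPKM in Pri-Hep, at 24.1 to 27.7 FPKM in Hep-Orgs and at 19.7 to 24.6 FPKM in the picked organoids.

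The steroid hormone genes Cyp11a1, Cyp11b1, Cyp11b2, Cyp17a1, Cyp19a1 and Cyp21a1 stayed below 0.4 FPKM in every library that listed them. Cyp17a1, which makes androgens in testis and adrenal, was the highest of them, at 0.245, 0.367 and 0.389 FPKM in Cho-Orgs at P0 and 0 at P5 and P10. Of the retinoic acid hydroxylases, Cyp26b1 fell from 1.01, 1.07 and 1.24 FPKM at P5 to 0.479, 0.442 and 0.434 FPKM at P10 in Cho-Orgs (adjusted p = 0.0474). That call was lost with median-ratio size factors (adjusted p = 0.0565), with no filter (adjusted p = 0.113) and without replicate 3 (adjusted p = 0.252). Cyp26a1 was at 0.823 FPKM in the grape-like library and at 0 in the other picked libraries, and Cyp26c1 stayed under 0.1 FPKM throughout. Of the vitamin D enzymes, the 25-hydroxylase Cyp2r1 was at 1.39 FPKM in the grape-like library beside 0.0851 and 0.156 FPKM, and Cyp24a1 and Cyp27b1 stayed below 0.3 FPKM in all libraries.

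The 3 picked subtypes have 1 library each, so their ratios have no replicate check and no test. They were counted on log2(FPKM + 1) among genes with at least 1 FPKM in 1 of the 3 libraries. Members below 1 FPKM in the round-like library, such as Cyp2b10, Cyp2c55, Cyp2c65 and Cyp4a10, were counted only because another library was higher. The counts below are therefore no support for a shared direction. Of the 79 members listed, 42 were counted, 5 were at 0 in all 3 libraries and 32 lay between. In the grape-like against the round-like library, 24 of 42 members were at least 2-fold higher and 1 was lower, that is 57.1% and 2.38% beside 12.9% and 8.82% of all 12595 genes counted. In the intermediate against the round-like library, 22 were higher and 1 was lower, that is 52.4% and 2.38% beside 3.85% and 2.54% of all genes. In the grape-like against the intermediate library, 5 were higher and 9 lower, that is 11.9% and 21.4% beside 9.71% and 7.15%. The 5 were Cyp2a4, Cyp27a1, Cyp4a10, Cyp2r1 and Cyp3a11, and Cyp2d10, Cyp2d22, Cyp2c65 and Cyp4f14 were among the 9. The median log2 ratio of the 42 members was 1.12, 1.15 and -0.20 in the 3 pairs, and that of all genes was -0.13, -0.12 and 0.03.

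Markers of other cells moved with these ratios. The 10 hepatocyte markers summed to 4754, 7451 and 1169 FPKM, and of 9 counted 5 were at least 2-fold higher in the grape-like than in the round-like library. The cholangiocyte markers summed to 878, 3461 and 2857 FPKM, and 8 of 9 were at least 2-fold lower in the grape-like library. All 8 Kupffer cell markers, all 7 stellate cell markers and all 7 sinusoidal endothelial markers were at least 2-fold higher in the grape-like than in the round-like library. The Kupffer list summed to 3034, 793 and 527 FPKM, the stellate list to 879, 234 and 166 FPKM and the endothelial list to 130, 53.2 and 23.7 FPKM, and no marker of these 3 lists was at 0. Their part in the P450 ratios was not tested.

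**Figure D5:**
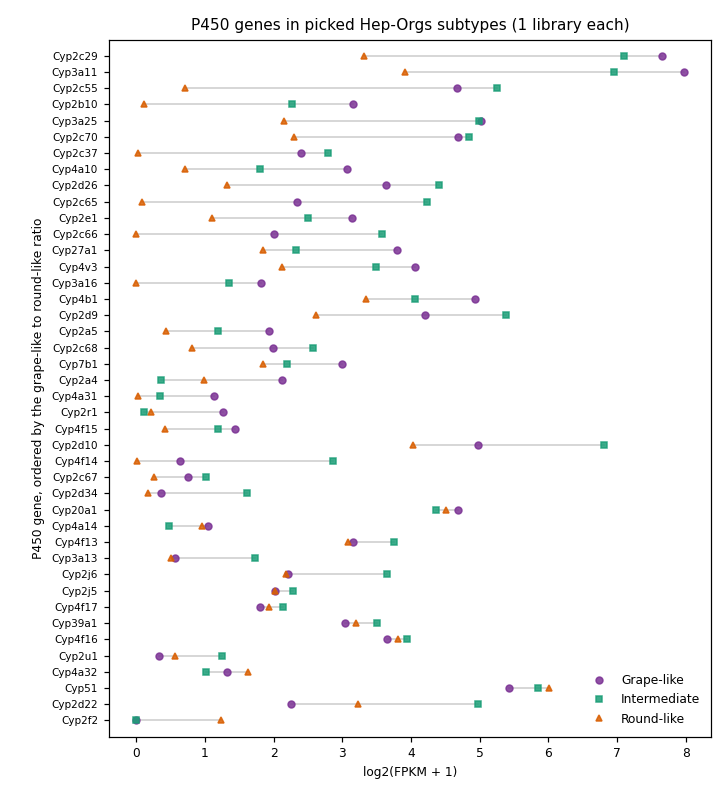
Level of the 42 counted P450 genes as log2(FPKM + 1) in the picked organoids of 3 shapes, with 1 point per library and a grey line over the range. Genes are ordered by the ratio of the grape-like to the round-like library. From Cyp2c29 down to Cyp4f15 the grape-like point lies to the right of the round-like one by at least 1, and Cyp2d10, Cyp2d22 and Cyp2d9 are highest in the intermediate library.

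Markers also moved with the falls in Cho-Orgs. Of the 10 hepatocyte markers, 9 were tested and all 9 fell from P0 to P5 and from P0 to P10, with median differences of -2.73 and -4.34 on the log2 scale. At P5 and at P10, 2 of the 10 were at 0. Of the cholangiocyte markers, 3 rose and 2 fell by P5 among 9 tested. The stellate list, in which Reln gave most of the level at P0 and P5, summed to 60.8 to 75.6 FPKM at P0, to 7.54 to 8.37 FPKM at P5 and, by P10, to 0.174 to 0.239 FPKM. Reln was the only 1 of its 7 genes tested. The Kupffer list stayed at 0.307 to 1.99 FPKM, with Clec4f at 0 in every library. Within P0, Apoa1, a hepatocyte marker, was at 51.7 to 197 FPKM, while the whole hepatocyte list summed to 5103 to 6118 FPKM. Alb made up most of that sum, so the sum does not show whether the other hepatocyte markers share the spread of Apoa1. The part of these shifts in the P450 values was not tested.

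P450 enzymes need electrons, heme and transcription factors, and these genes were followed by lists of their own. Por, the reductase that feeds all microsomal P450s, was at 70.8 to 71.8 FPKM in Pri-Hep and had means of 123, 147 and 133 FPKM in Cho-Orgs at P0, P5 and P10. It rose from P0 to P5 by 0.26 ± 0.04 (adjusted p = 0.000691). The counts of these lists stand beside 56.6% of all genes called from P0 to P5, and beside 72.3% from P0 to P10, 41.0% higher and 31.3% lower. Of 6 redox partners tested, 1 rose and 3 fell from P0 to P5, and 2 rose and 4 fell from P0 to P10, all by less than 2-fold. Among 9 genes of heme synthesis and breakdown, 2 rose and 5 fell from P0 to P10. The share called in either direction was near that of all genes, but here more fell than rose. Of these only Cpox, a late step of heme synthesis, changed by more than 2-fold, from 16.2 to 37.8 FPKM (1.18 ± 0.04, adjusted p = 1.36e-08). Of 11 regulators tested, 2 rose and 8 fell from P0 to P10. Nr1i2, the gene for PXR, the drug receptor that drives Cyp3a11, fell by 1.82 ± 0.09 on the log2 scale, from 3.50 to 0.265 FPKM (adjusted p = 7.9e-08), and 1.66 of that came by P5 (adjusted p = 4.38e-07). Nr0b2, the bile acid responsive repressor SHP, fell by 2.77 ± 0.15 (adjusted p = 1.26e-07) and Nr5a2 by 1.48 ± 0.08 (adjusted p = 1.49e-07). Rxra, a shared partner of several nuclear receptors, fell by 1.06 ± 0.07 (adjusted p = 6.29e-07), and the clock factor Dbp by 1.79 ± 0.15 (adjusted p = 3.31e-06). In the table of Pri-Hep and Hep-Orgs, none of the tested genes of these 3 lists passed the test in any comparison. In the picked subtypes, Por was at 108, 83 and 56.9 FPKM and Nr1i2 at 1.92, 6.04 and 0.487 FPKM. The part of the genes of these 3 lists in the P450 levels was not tested.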

How the data were processed

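The authors deposited FPKM values in 3 tables, made separately for the 12 Pri-Hep and Hep-Orgs libraries, the 9 Cho-Orgs libraries and the 3 picked subtypes. The submitters' processing notes name build mm10, featureCounts 2.0.3 and edgeR 3.40.2. The aligner and the annotation release are not given in the sources used here. In the first table, FPKM times the listed gene length gave whole fragments for 100% of the nonzero values checked (tolerance 0.01), with 14068906 to 27160365 fragments per library. Genes with the most fragments were left out of this check. The other tables list no lengths and hold no counts, so their depth is unknown and no interval from counts was given. Of the members, 89 of 98 have the coordinates of GENCODE M21 (GRCm38), which were printed.

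Each table was fitted by itself with limma 3.58.1 in R 4.3.3 (linear model over all groups, empirical Bayes with trend, two-sided, Benjamini-Hochberg) on log2(FPKM + 1), for genes of at least 1 FPKM in at least 3 libraries. The pseudocount of 1 understates changes of low genes. A member was called at an adjusted p under 0.05. The step was tested on simulated data. Subtypes with 1 library were compared as ratios, counted from a log2 ratio of 1. Members named were the 5 of highest mean in each group, up to 10 called members with groups that did not overlap in each direction of each Cho-Orgs comparison, any called in Hep-Orgs, up to 8 in each direction of each subtype pair, the highest of each family, all members of families of up to 3, and Cyp3a11, Cyp2e1, Cyp7a1 and Cyp27a1. Others are named where a list or count needed them, chosen after their values were seen. Of the partner lists, genes called with a log2 difference of at least 1 in any Cho-Orgs comparison were eligible, and Por. The members and lists were chosen with earlier results of these data known. Alternatives were a pseudocount of 0.1, other filters, TPM, median-ratio size factors, no trend, only the groups compared, a replicate block, each replicate number left out, and limma-voom on recovered fragments.

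The replicate numbers were not treated as pairs: the sources differ on whether they mark animals, and deviations from the group means of same-numbered libraries correlated at a median of -0.00626 in Cho-Orgs (9 pairs) and -0.00155 in Pri-Hep and Hep-Orgs (18 pairs). Libraries of the first table differed beyond counting noise, with a chi-square per degree of freedom of 1.90 to 3.04 within groups (median 2.17) and 1.81 to 4.36 between groups (median 2.48). All were kept as separate libraries, though this does not exclude technical repeats.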

Additional observations from a re-analysis of the deposited data

How the results depend on the processing

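The counts of members called in Cho-Orgs depended on the filter. With no filter on low values, 80 members were tested, and 36 were called from P0 to P5, 43 from P0 to P10 and 23 from P5 to P10. Of all 22670 genes tested in that way, 7584, 10077 and 7838 were called. With a mean of at least 5 FPKM, 16 were tested and 13, 14 and 10 were called, beside 4471, 5698 and 4924 of all 7721 genes. The counts changed with the number of genes tested, and the shares called changed as well. Without 1 replicate number, 20 to 23 members were called from P0 to P5, 24 to 25 from P0 to P10 and 12 to 16 from P5 to P10. Of all 11593 genes, 4624 to 5657, 6920 to 7780 and 5227 to 6378 were called. Without replicate 3 the members lower from P5 to P10 went from 9 to 4, and all genes lower from 3533 to 2656. With a replicate block the counts were 21, 25 and 17, as without it, and it changed no call of a member. Of all genes, 6381, 8278 and 6939 were called with the block. In Pri-Hep and Hep-Orgs, 0 members were called under every alternative run, the replicate block included. Over all genes, limma-voom on recovered fragments called 12, 30, 39 and 0 genes for all Hep-Orgs, P1, P5 and P10 against Pri-Hep, and 0, 29 and 28 for P5 against P1, P10 against P1 and P10 against P5, where limma called 0, 1, 1, 0, 0, 0 and 3.

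No called member changed sign. Members that were not called did. Cyp39a1 went to -0.0601 from P0 to P5 and to -0.0736 from P0 to P10 with median-ratio size factors, and to -0.00165 between all Hep-Orgs and Pri-Hep with TPM. With each replicate number left out in turn, the difference of Cyp39a1 ranged from -0.149 to 0.132 from P0 to P5, from -0.142 to 0.205 from P0 to P10 and from -0.140 to 0.0726 from P5 to P10. From P0 to P5 that of Cyp26b1 ranged from -0.124 to 0.369 and that of Cyp2d34 from -0.325 to 0.490, and from P5 to P10 that of Cyp2c29 ranged from -0.0618 to 0.0108. Between all Hep-Orgs and Pri-Hep, Cyp2d10 ranged from -0.0919 to 0.0384, Cyp4b1 from -0.0279 to 0.00831, Cyp39a1 from -0.00711 to 0.0102 and Cyp3a11 from -0.0680 to 0.125. For the picked subtypes, the members past 2-fold numbered 25, 23 and 14 in the 3 pairs, grape-like against round-like, intermediate against round-like and grape-like against intermediate. Of all 12595 genes, 1629, 485 and 1223 were higher and 1111, 320 and 900 lower. The members numbered 28, 30 and 19 with a pseudocount of 0.1, beside 2127, 803 and 1702 genes higher and 1498, 611 and 1272 lower. They numbered 17, 18 and 10 with at least 5 FPKM, beside 1197, 356 and 912 of 9224 genes higher and 818, 199 and 718 lower. With TPM they were 27, 27 and 17, beside 2005, 588 and 1675 higher and 1296, 549 and 1028 lower. With median-ratio size factors they were 26, 23 and 13, beside 1731, 602 and 1151 higher and 993, 230 and 980 lower. The depth of the Cho-Orgs and subtype tables is unknown, which limits what a listed 0 can show.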
